A study of Homo sapiens with 18 samples.

Results

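The caveolins and cavins examined here are 5 genes, CAV1, CAV2, CAVIN1, CAVIN2 and CAVIN3, taken by symbol from the 16715 genes listed in at least 1 of 2 expression tables. All 5 were listed among 15358 genes in MCF10A cells, and 4 were listed among 15257 genes in hTERT RPE-1 cells, where CAVIN3 was not analysed here. CAVIN2 was selected on measured values of these libraries: the study labels it as a target of both mimics, from chimeric reads of microRNA and mRNA in MCF10A cells, while its change against siNT differs between the lines. All contrasts of CAVIN2 are therefore given as a description with no test. The chimeric reads came from a separate assay on pooled cells, at an earlier time after transfection. The paper reports problems with the limit of detection in that assay. The other members were taken because they belong to the same gene families.

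PolyA+ RNAseq was conducted on 18 libraries, 3 biological replicates in each of 6 groups. The cells were MCF10A, a non-cancerous line of human breast epithelium, or hTERT RPE-1, a retinal pigment epithelial line immortalized with telomerase. Each line was treated for 72 h at 30 nM with siNT, a non-targeting siRNA, with a mimic of hsa-miR-28-5p (miR-28 below) or with a mimic of hsa-miR-708-5p (miR-708 below). A mimic is a synthetic duplex that raises the level of a mature microRNA in the cell. All groups of a line thus received a small RNA, and no untransfected cells were included. Each line is a single established culture, and the replicates are numbered 7, 8 and 9 for MCF10A cells, with 1, 2 and 3 used for hTERT RPE-1.

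Caveolae are flask-shaped pits of the plasma membrane. Caveolin-1, which CAV1 encodes, is the integral membrane protein without which caveolae do not form outside striated muscle, and caveolin-2, the product of CAV2, joins it in hetero-oligomers. The cavins are cytosolic proteins that coat the pit from the inside. Cavin-1, from CAVIN1, is required for the coat and recruits the others. Cavin-2 and cavin-3, from CAVIN2 and CAVIN3, bind cavin-1 as regulatory subunits, cavin-2 in connection with membrane curvature and cavin-3 with caveola trafficking. MicroRNAs act chiefly by pairing of their seed, bases 2 to 8 counted from the 5′ end, with sites in mRNAs, most often in 3′ UTRs, and the mRNA is then destabilized or translated less.

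The sequence of hsa-miR-708-5p is shown because its seed, in capitals, sets the letters that were searched for in the members; the sibling hsa-miR-28-5p shares this seed. The mature strand lies at chr11:79402077-79402099 on the minus strand (RefSeq, GRCh38.p14).
hsa-miR-708-5p: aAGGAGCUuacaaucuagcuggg

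The complement of seed bases 2 to 7, GCTCCT, was searched on the sense strand of each member's representative transcript (GENCODE 44, hg38), and AGCTCCT, its extension by the base that pairs with seed base 8, or GCTCCTA, with an A opposite base 1, was recorded as a longer match that contains it. The 3′ UTR of CAVIN1, which has 2238 bases in exon 2 of 2 on the minus strand of chromosome 17, held 3 matches, 1 of them the longer form. The windows of 30 bases around them, with the match in capitals, were as follows, in the order of their positions 32, 1446 and 1900 in the UTR.
CAVIN1 3′ UTR, chr17:42404638-42404667: accccattcctcGCTCCTtccgaacttcct
CAVIN1 3′ UTR, chr17:42403224-42403253: gtttcttctcaAGCTCCTtccctaggagca
CAVIN1 3′ UTR, chr17:42402770-42402799: ttccccccacctGCTCCTtaccttctctgc
Among 2396 annotated 3′ UTRs within 20% of this length, 46.0% held GCTCCT at least once, 23.0% held a longer form and 5.97% held GCTCCT 3 times or more.

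CAVIN2 held no match in its 3′ UTR of 1613 bases, where 37.9% of UTRs of about that length held at least 1, but its coding sequence held 2, both in exon 1 of 2 on the minus strand of chromosome 2, at positions 180 and 444. They are shown because CAVIN2 is the labelled target.
CAVIN2 coding sequence, chr2:191846729-191846758: cacggtgctcacGCTCCTggacaagctggt
CAVIN2 coding sequence, chr2:191846465-191846494: caaccacgcccAGCTCCTccgacgcaacca
Of the coding sequences within 20% of the length of that of CAVIN2, 44.5% held GCTCCT and 19.7% held a longer form. No match to GCTCCT lay in the 3′ UTRs of CAV1 (1892 bases), CAV2 (2420 bases) or CAVIN3 (217 bases), where 40.9%, 47.0% and 8.84% of UTRs of about the same length held one. A match is a run of letters, and whether any of these was bound was not measured in these libraries.

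CAV1 (ENSG00000105974, chr7:116525036-116561179) and CAV2 (ENSG00000105971, chr7:116499738-116508541) lie on the plus strand of chromosome 7, with 16494 bases between the end of CAV2 and the start of CAV1. CAVIN1 (ENSG00000177469) is at chr17:42402449-42423256, CAVIN2 (ENSG00000168497) at chr2:191834310-191847088 and CAVIN3 (ENSG00000170955) at chr11:6318946-6320501, all on minus strands. CAVIN2 overlaps the antisense gene CAVIN2-AS1, and CAV1, CAVIN1 and CAVIN3 each overlap an unnamed annotated gene. The sources used here do not say whether counting used the strand, so reads of such partners may be included.

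The values are estimated reads per gene, divided by the authors by a size factor of the library. By estimate, MCF10A libraries had 19.4–31.7 M reads assigned to genes and hTERT RPE-1 libraries had 23.8–40.3 M, so 3 reads correspond to a value of 2.49–4.03 and 2.36–4.41, which covers counting error only. Every member was above this level in every library and passed the filter on low values, which asked for 10 or more in 3 or more libraries of the line. RPS28, the gene that the study followed as a target, was lower with both mimics, with means that went from 3870 to 566.8 and 623.7 in MCF10A. The same means in hTERT RPE-1 went from 3220 to 146.6 and 153.2. In MCF10A all 6 breast epithelial markers looked at were listed, compared with 1 of the 6 in hTERT RPE-1. In hTERT RPE-1 7 of 9 pigment epithelial markers were listed, without RPE65 and TYR and with RLBP1 at 1.47–4.05 with siNT. In MCF10A 6 of these 9 were listed, RPE65 among them, so the count of pigment epithelial markers does not separate the lines. In 1 hTERT RPE-1 library, miR-28 replicate 1, ribosomal RNA took 15.1% of all values, compared with 4.23–7.20% in the other 8, so the members' results with miR-28 in that line are also given without it.

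With siNT, the levels were ordered per kb of transcript, since raw values grow with transcript length. In MCF10A, CAV1 was highest at 5362–5524 per kb, followed by CAVIN1 at 1302–1707, CAV2 at 1168–1293, CAVIN2 at 713.2–838.0 and CAVIN3 at 299.3–378.4. The ranges of neighbouring genes did not overlap, although CAVIN1 and CAV2 were nearly adjacent. In hTERT RPE-1, CAVIN1 at 5956–7461 per kb and CAV1 at 5112–6056 overlapped, CAV2 followed at 853.4–982.9, and CAVIN2 was far lower at 13.5–22.6. The 2 tables were scaled separately, so levels were not tested between lines. The ratio of CAVIN2 to CAVIN1 per kb, taken within each library, was on average 52.3% ± 3.31 in MCF10A and 0.258% ± 0.0548 in hTERT RPE-1 (SD, n = 3).

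**Figure D1:**
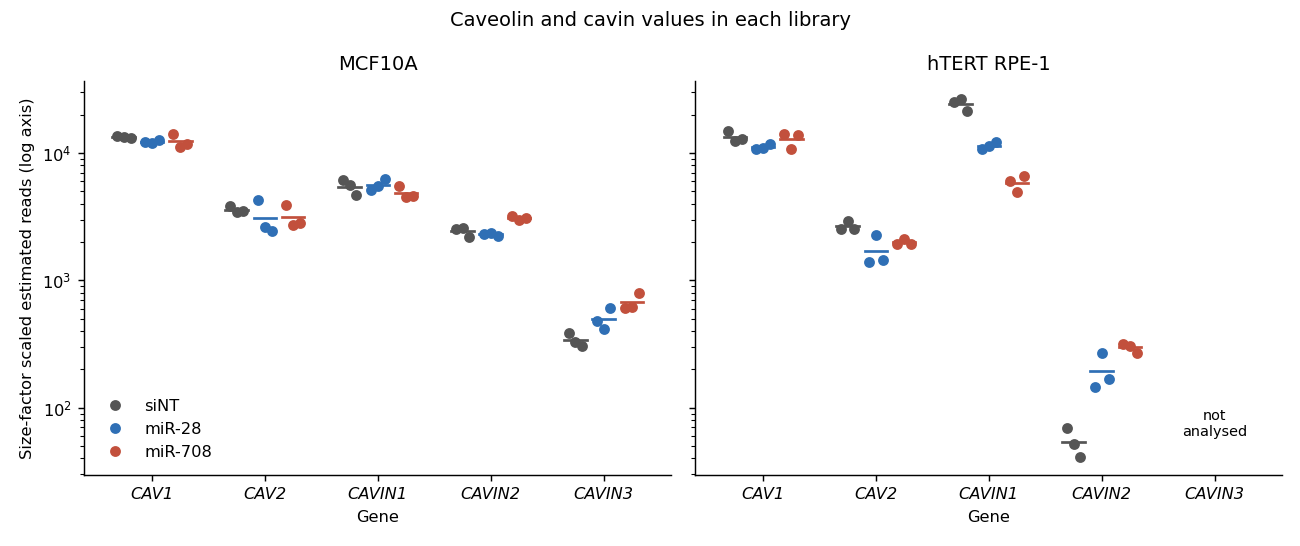
Value of each caveolin and cavin in every library, as size-factor scaled estimated reads on a log axis, with 1 point per library (n = 3 per group) and a line at the group mean. In hTERT RPE-1, CAVIN1 steps down from siNT (21262–26634) through miR-28 (10752–12135) to miR-708 (4972–6585), while in MCF10A its 3 groups overlap; CAVIN3 was not analysed in hTERT RPE-1.

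CAVIN1, which encodes the obligatory coat protein, fell with both mimics in hTERT RPE-1. Its values were 25130, 26634 and 21262 with siNT (replicates 1, 2 and 3), 10752, 11468 and 12135 with miR-28, and 6013, 4972 and 6585 with miR-708. All libraries of both mimics were below all siNT libraries, and the group mean was lowest with miR-708. In this line 27.5% of all genes had all miR-28 libraries below all siNT libraries and 34.9% had all miR-708 libraries below them, with 26.9% and 34.3% above. The mean was 24342 ± 2771 (SD, n = 3) with siNT, and it was 47.0% of that with miR-28 (11452 ± 691.7) and 24.1% with miR-708 (5857 ± 817.9). The log2 fold change, on the log2(value + 1) scale used throughout, was -1.08 ± 0.12 (SE) with miR-28 (limma, adjusted p = 7.01e-05) and -2.06 ± 0.12 with miR-708 (adjusted p = 4.58e-07). Without the library rich in ribosomal RNA, the change with miR-28 was -1.04 (limma, adjusted p = 0.000131).

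In MCF10A, CAVIN1 was 6093, 5591 and 4648 with siNT (replicates 7, 8 and 9), 5155, 5466 and 6268 with miR-28, and 5541, 4525 and 4604 with miR-708. All 3 groups overlapped. Its log2 fold change was 0.05 with miR-28 (95% interval -0.22 to 0.33, limma, adjusted p = 0.794) and -0.15 with miR-708 (-0.43 to 0.13, adjusted p = 0.383). With miR-28 the sign turned without siNT replicate 9 (-0.06) or without miR-28 replicate 9 (-0.03).

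The response of CAVIN1 was therefore compared between the lines directly, as the log2 fold change in hTERT RPE-1 minus that in MCF10A. The difference was -1.14 ± 0.18 (SE) for miR-28 (limma estimates, adjusted p = 0.000135) and -1.91 ± 0.18 for miR-708 (adjusted p = 7.76e-08). Without the library rich in ribosomal RNA, the difference for miR-28 was -1.09 for CAVIN1 (adjusted p = 0.000211), -0.12 for CAV1 (adjusted p = 0.656) and -0.29 for CAV2 (adjusted p = 0.433), again as limma estimates. Over the 13339 genes tested in both lines, 23.4% differed for miR-28 (11.3% lower and 12.1% higher in hTERT RPE-1) and 39.8% for miR-708 (19.6% lower and 20.2% higher). Of the 3 members tested, CAVIN1 was called for both mimics, and neither CAV1 nor CAV2 was called.

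**Figure D2:**
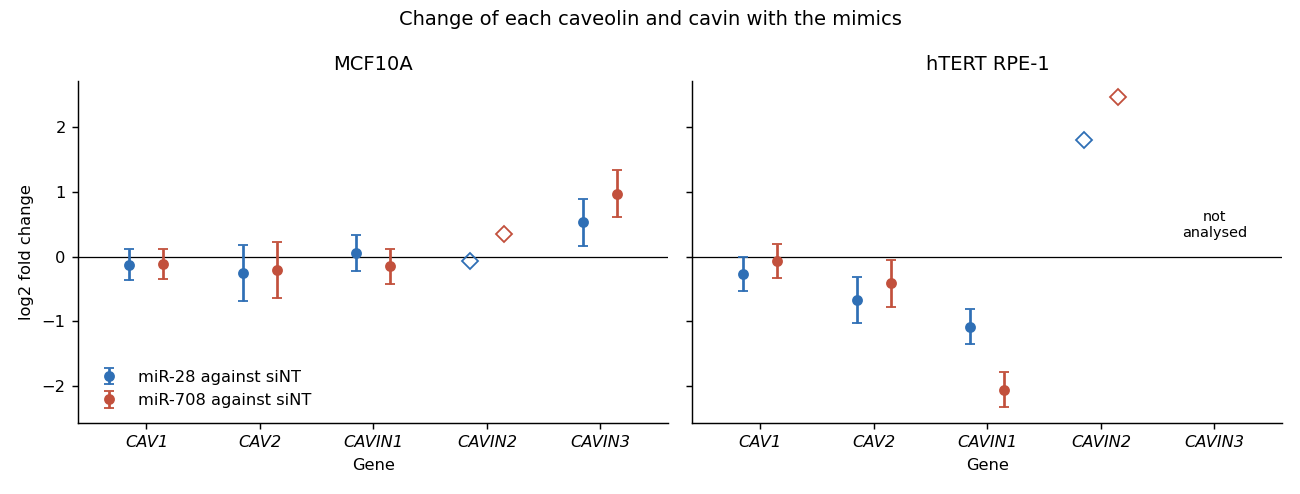
Log2 fold change of each member against siNT in both lines. Points with bars are limma estimates with 95% intervals (n = 3 per group), and open diamonds are CAVIN2, which was chosen for these changes and has no interval; CAVIN1 is at -1.08 and -2.06 in hTERT RPE-1 and near 0 in MCF10A.

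CAV1, the gene of the main structural protein, passed the test in neither line. In MCF10A it was 13566, 13262 and 13168 with siNT, 12146, 11952 and 12594 with miR-28, and 14211, 11163 and 11724 with miR-708. The miR-28 libraries lay below all siNT libraries by a small margin, as they did for 22.1% of all genes in this line (23.9% with miR-708), and those with miR-708 spread across them. For CAV1 in this line the log2 fold change was -0.12 with miR-28 (95% interval -0.36 to 0.11, limma, adjusted p = 0.429) and -0.12 with miR-708 (-0.35 to 0.12, adjusted p = 0.438).

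In hTERT RPE-1, CAV1 was 14873, 12556 and 12924 with siNT, 10809, 10902 and 11790 with miR-28, and 14047, 10751 and 13974 with miR-708. The miR-28 group lay below siNT without overlap, as for 27.5% of all genes in this line, and the miR-708 group overlapped both. On the log2 scale the change was -0.27 ± 0.12 (SE) with miR-28 (95% interval -0.53 to -0.00, limma, adjusted p = 0.0916), or -0.24 without the library rich in ribosomal RNA (adjusted p = 0.163), and -0.06 ± 0.12 with miR-708 (-0.33 to 0.20, adjusted p = 0.660). With miR-708 the sign depended on the scaling and on single libraries. It was 0.25 when libraries were scaled by their totals, 0.01 without siNT replicate 1 and 0.06 without miR-708 replicate 2. The difference between the lines in log2 fold change was -0.14 (95% interval -0.48 to 0.19, limma estimates, adjusted p = 0.561) for miR-28 and 0.05 (-0.28 to 0.39, adjusted p = 0.822) for miR-708.

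CAV2, whose product depends on caveolin-1 to reach the cell surface, fell in hTERT RPE-1 with miR-28. Its values were 2520, 2902 and 2536 with siNT, 1396, 2277 and 1447 with miR-28, and 1942, 2103 and 1917 with miR-708. All 6 mimic libraries were below all siNT libraries, as for 27.5% of all genes with miR-28 and 34.9% with miR-708. Replicate 2 of miR-28 stood above the other 2 of its group. For CAV2 this gave a log2 fold change of -0.67 ± 0.16 (SE) with miR-28 (limma, adjusted p = 0.00643), and -0.54 without the library rich in ribosomal RNA (adjusted p = 0.0166).

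With miR-708, the log2 fold change of CAV2 was -0.41 ± 0.16 (limma, adjusted p = 0.0443). This call is not stable. It was lost when any of the 6 libraries was left out (log2 fold change -0.46 to -0.35, adjusted p = 0.0646 to 0.137), with scaling by library totals (-0.10, adjusted p = 0.643) or by the upper quartile (-0.39, adjusted p = 0.0533), and without the trend of the spread over the mean (adjusted p = 0.0773). Scaling by totals moved the median of all genes to 0.32 in this comparison, so relative to that median CAV2 stayed below it.

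In MCF10A, CAV2 was 3819, 3449 and 3521 with siNT, 4306, 2613 and 2427 with miR-28, and 3887, 2724 and 2842 with miR-708. Replicate 7 was the highest library in all 3 groups, siNT included. In both mimic groups it overlapped or exceeded siNT, while replicates 8 and 9 were lower. Neither mean change passed the test, with a log2 fold change of -0.25 (95% interval -0.69 to 0.18, limma, adjusted p = 0.375) with miR-28 and -0.21 (-0.64 to 0.22, adjusted p = 0.451) with miR-708. Without miR-28 replicate 7 the change with miR-28 was -0.51 and passed the test (limma, adjusted p = 0.0289). The difference between the lines in log2 fold change was -0.42 (95% interval -0.95 to 0.11, limma estimates, adjusted p = 0.249) for miR-28 and -0.21 (-0.74 to 0.32, adjusted p = 0.547) for miR-708. For miR-28 the difference was -0.64 and passed the test without hTERT RPE-1 miR-28 replicate 2 (limma estimates, adjusted p = 0.0485).

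CAVIN3, the smallest transcript of the set, was analysed in MCF10A only, where it rose with both mimics. Its values were 389.0, 330.0 and 307.7 with siNT, 477.3, 418.8 and 603.2 with miR-28, and 609.8, 618.3 and 800.0 with miR-708. All mimic libraries were above all siNT libraries, as for 19.7% of all genes with miR-28 and 22.6% with miR-708. The mean was 342.2 ± 42.1 with siNT, 499.8 ± 94.2 with miR-28 and 676.0 ± 107.4 with miR-708 (SD, n = 3). The log2 fold change was 0.98 ± 0.17 (SE) with miR-708 (limma, adjusted p = 0.00131), and adjusted p was 0.000272 to 0.00784 in all alternatives tried.

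With miR-28, CAVIN3 had a log2 fold change of 0.54 ± 0.17 (limma, adjusted p = 0.0389). The call was lost without siNT replicate 8 or 9 (adjusted p = 0.102 and 0.126), without miR-28 replicate 7 or 9 (adjusted p = 0.0580 and 0.137) and without the trend (adjusted p = 0.0669), with a log2 fold change of 0.39 to 0.56 in these 5 fits.

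Of the 4 members tested against siNT in MCF10A, 1 was called higher and none lower with each mimic. Of all 14726 genes, 22.7% were called with miR-28 (10.7% higher, 12.0% lower) and 32.8% with miR-708 (15.5% higher, 17.3% lower). Of the 3 members tested in hTERT RPE-1, 2 were called lower and none higher with each mimic, where 46.8% of 14527 genes were called with miR-28 (23.3% higher, 23.5% lower) and 62.1% with miR-708 (30.9% higher, 31.2% lower). With so few members, these counts are not set apart from the background shares.

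CAVIN2, the labelled target, is described without a test. In MCF10A it was 2529, 2559 and 2178 with siNT, 2332, 2363 and 2228 with miR-28, and 3214, 2988 and 3090 with miR-708. The siNT and miR-28 groups overlapped, and the miR-708 group was above siNT. With miR-708, 22.6% of all genes in this line were wholly above siNT. The mean was 95.3% of that with siNT for miR-28 and 127.9% for miR-708, and the log2 fold changes were -0.07 and 0.36. When libraries were scaled by their totals, these were 0.04 and 0.50, with the median of all genes at 0.12 and 0.14. With miR-708 the level was above that with miR-28 by 0.42 on the log2 scale.

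In hTERT RPE-1, CAVIN2 was 69.1, 51.7 and 41.1 with siNT, 145.1, 267.9 and 166.6 with miR-28, and 318.6, 307.2 and 271.4 with miR-708. The group means rose in this order. Both mimic groups were above siNT, as for 26.9% of all genes with miR-28 and 34.3% with miR-708. The group means were 53.9 ± 14.1, 193.2 ± 65.6 and 299.1 ± 24.6 (SD, n = 3), 3.58 and 5.54 times the siNT mean, and the log2 fold changes were 1.80 and 2.48. The difference between the lines that the choice rests on was 1.87 for miR-28 and 2.12 for miR-708 in log2 fold change. The log2 difference of miR-708 from miR-28 in hTERT RPE-1 was 0.68. Without the library rich in ribosomal RNA, the change with miR-28 was 1.98, the difference between the lines 2.05 and that between the mimics 0.50. The highest value in hTERT RPE-1, 318.6, was still below the lowest in MCF10A, 2178, each in its own table.

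The mimics were also compared with each other, with no siNT library in the contrast. CAVIN1 was lower with miR-708 than with miR-28 in hTERT RPE-1, by a log2 fold change of -0.98 ± 0.12 (SE) (limma, adjusted p = 0.00101), or -1.02 without the library rich in ribosomal RNA (adjusted p = 0.00160). It was the only member called of 3 tested, and 21.2% of all genes were called in this contrast, 11.4% lower and 9.88% higher with miR-708. In MCF10A the difference for CAVIN1 was -0.20 (95% interval -0.48 to 0.07, limma, adjusted p = 0.463). None of the 4 members tested was called there, where 1.55% of all genes were, 1.28% higher and 0.265% lower.

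The other members tested did not pass between the mimics. In hTERT RPE-1 the difference was 0.20 (95% interval -0.06 to 0.47, limma, adjusted p = 0.259) for CAV1 and 0.26 (-0.10 to 0.61, adjusted p = 0.287) for CAV2. Without the library rich in ribosomal RNA these were 0.18 and 0.13 (limma, adjusted p = 0.415 and 0.635). With scaling by totals both passed the test, at 0.43 and 0.49 (adjusted p = 0.0253 and 0.0497), with the median of all genes at 0.23, and CAV2 also passed without miR-28 replicate 2 (0.48, adjusted p = 0.00439). In MCF10A the difference was 0.01 (-0.23 to 0.24, limma, adjusted p = 0.981) for CAV1, 0.05 (-0.39 to 0.48, adjusted p = 0.932) for CAV2 and 0.44 (0.08 to 0.80, adjusted p = 0.233) for CAVIN3.

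Ratios within a library do not depend on its scaling and show how the balance of the transcripts moved. Per kb, CAVIN1 was 116.2%, 145.9% and 113.2% of CAV1 with siNT in hTERT RPE-1, 68.4%, 72.4% and 70.8% with miR-28, and 29.5%, 31.8% and 32.4% with miR-708. The groups did not overlap, so CAVIN1 went from about the level of CAV1 to well below it. In MCF10A the means were 28.1% ± 3.41, 31.6% ± 2.53 and 27.2% ± 0.566 (SD, n = 3), and miR-708 in hTERT RPE-1, at 31.2% ± 1.57, thus came to a similar ratio. The log2 ratio differed from siNT by -0.82 and -1.99 in hTERT RPE-1, with an exact two-sided permutation p of 0.1 for each, the smallest that 3 against 3 libraries can give, and by 0.18 and -0.04 in MCF10A (exact permutation p = 0.2 and 0.8).

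The ratio of CAV2 to CAV1 was 22.4% ± 0.906 with siNT, 21.2% ± 7.23 with miR-28 and 21.1% ± 1.46 with miR-708 in MCF10A. The same ratio was 16.5% ± 2.57, 12.8% ± 3.99 and 13.1% ± 2.78 in hTERT RPE-1 (SD, n = 3). The groups overlapped in each line, and the exact permutation p was 0.2 to 0.7. CAVIN3 relative to CAVIN1 in MCF10A was 21.9% ± 1.27, 30.7% ± 3.62 and 48.7% ± 11.1, with no overlap between the groups (exact permutation p = 0.1 against siNT for each mimic, the smallest possible). A total of 10 such ratio comparisons were made, and none can pass an adjustment in a design of this size. CAVIN2 relative to CAVIN1 in hTERT RPE-1 was 0.258%, 1.97% and 6.08% on average, given as a description.

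**Figure D3:**
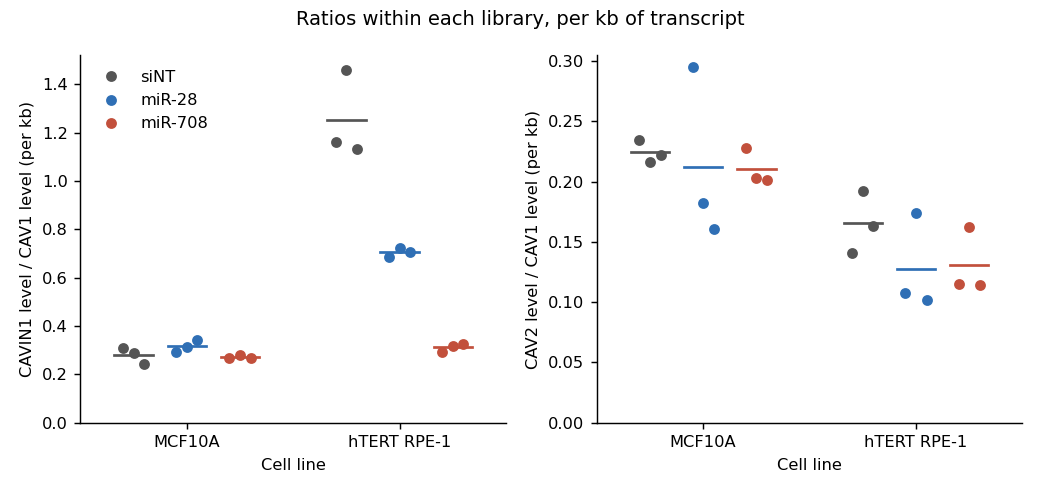
Ratio of CAVIN1 to CAV1 (left) and of CAV2 to CAV1 (right), each per kb of transcript, with 1 point per library and a line at the mean of 3. The CAVIN1 ratio in hTERT RPE-1 goes from 1.13–1.46 with siNT to 0.295–0.324 with miR-708, close to the values of MCF10A, and the CAV2 ratio overlaps between the groups of a line.

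The proteins that work with caveolae were examined as a list of 14 genes, of which 12 were tested in each line. The list held the EHD ATPases at the neck, the membrane-bending PACSINs, the dynamins and filamin A as the link to actin. It also held the kinases SRC, FYN and ABL1, and NOS3. PACSIN1 and NOS3 were not tested in either line. In hTERT RPE-1, 1 was called higher and 5 lower with miR-28 (4 lower without the library rich in ribosomal RNA), and 2 higher and 7 lower with miR-708. The median log2 fold change was -0.29 and -0.41, compared with 0.01 and 0.00 over all genes. These counts stand beside 46.8% of all genes called with miR-28 and 62.1% with miR-708 in this line. Under scaling by library totals, the counts with miR-708 were 4 higher and 3 lower. In MCF10A, 1 was called higher and none lower with miR-28, and 1 higher and 2 lower with miR-708, with medians of -0.02 and -0.06, where 22.7% and 32.8% of all genes were called.

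EHD2, which encodes the ATPase that confines caveolae to the membrane, changed most among those called with both mimics in hTERT RPE-1. It was 11630, 11976 and 9925 with siNT, 5152, 4606 and 5641 with miR-28, and 2126, 1998 and 2158 with miR-708. Both mimic groups lay below siNT, as for 27.5% of all genes with miR-28 and 34.9% with miR-708. The group means fell in the order of those of CAVIN1. The log2 fold change was -1.12 ± 0.10 (SE) with miR-28 (limma, adjusted p = 1.54e-05) and -2.41 ± 0.10 with miR-708 (adjusted p = 6.84e-08). In MCF10A it was -0.08 (adjusted p = 0.562) and -0.41 (adjusted p = 0.00610), and the difference between the lines was -1.04 for miR-28 (limma estimates, adjusted p = 2.37e-05) and -2.00 for miR-708 (adjusted p = 1.87e-09).

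FLNA, the gene of filamin A, was 239313 ± 46571 with siNT, 157335 ± 34936 with miR-28 and 72499 ± 11155 with miR-708 in hTERT RPE-1 (SD, n = 3). Its log2 fold change was -1.72 with miR-708 (limma, adjusted p = 9.26e-05) and -0.61 with miR-28 (adjusted p = 0.0494), where it was lost under scaling by totals (adjusted p = 0.0738) and without miR-28 replicate 1 (adjusted p = 0.0531). EHD3 fell by 1.01 and 1.27 on the log2 scale in the same line (limma, adjusted p = 4.82e-05 and 4.60e-06). DNM1, a dynamin best known from neurons, fell by 0.65 and 0.51 (adjusted p = 0.0139 and 0.0317), and with miR-708 it did not pass under scaling by totals (-0.19, adjusted p = 0.359).

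EHD4, another EHD ATPase, went the other way in hTERT RPE-1. Its values were 1749, 1922 and 1845 with siNT, 1539, 4885 and 3322 with miR-28, and 3788, 3818 and 4985 with miR-708. All miR-708 libraries were above all siNT libraries, as for 34.3% of all genes. The miR-28 library rich in ribosomal RNA, replicate 1, was below all siNT libraries. EHD4 rose with miR-708, by a log2 fold change of 1.18 (limma, adjusted p = 0.00808). With miR-28 it was at 0.67 and not called (adjusted p = 0.108), and it was called without that library, at 1.13 (adjusted p = 0.000247).

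FYN, a kinase of the SRC family that phosphorylates caveolin-1, was the only accessory gene called with both mimics in MCF10A. It was 68.2, 50.4 and 73.0 with siNT, 197.1, 358.2 and 424.8 with miR-28, and 404.8, 490.0 and 545.1 with miR-708. All mimic libraries were above all siNT libraries, as for 19.7% of all genes with miR-28 and 22.6% with miR-708 in this line. Its log2 fold change was 2.28 ± 0.27 (limma, adjusted p = 0.000402) and 2.90 ± 0.27 (adjusted p = 3.90e-05), and in hTERT RPE-1 it was 0.27 (adjusted p = 0.0438) and 0.41 (adjusted p = 0.00364), the former not called without miR-28 replicate 1 (adjusted p = 0.105). The difference between the lines was -2.02 and -2.48 (limma estimates, adjusted p = 0.000265 and 1.20e-05).

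**Figure D4:**
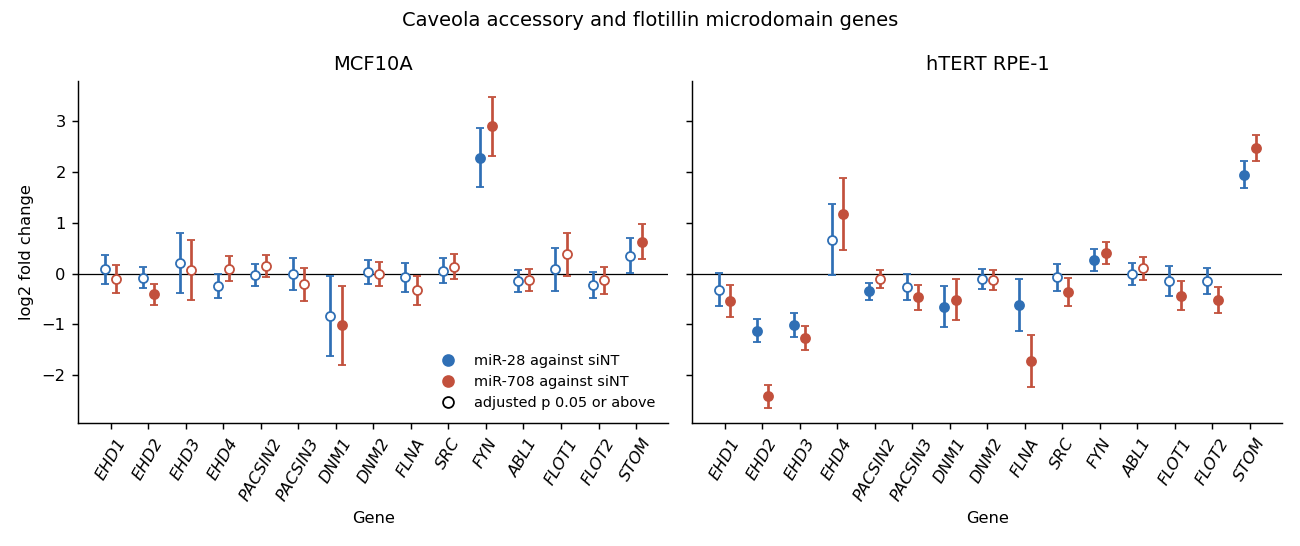
Log2 fold change against siNT of the caveola accessory genes and the flotillin microdomain genes, with limma estimates, 95% intervals (n = 3 per group) and open points where adjusted p was 0.05 or above. EHD2, EHD3 and FLNA lie below 0 in hTERT RPE-1, FYN stands above the others in MCF10A, and STOM is highest in hTERT RPE-1, where EHD4 is at 0.67 and 1.18.

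Flotillin microdomains are membrane domains built without caveolins. Of FLOT1, FLOT2 and STOM, the gene of stomatin, none passed the test with miR-28 in MCF10A and STOM was called higher with miR-708 there (0.63, limma, adjusted p = 0.0112). Of all genes in MCF10A, 22.7% were called with miR-28 and 32.8% with miR-708, and in hTERT RPE-1 these shares were 46.8% and 62.1%. In hTERT RPE-1, STOM rose from 395.9 ± 30.6 with siNT to 1541 ± 232.4 with miR-28 and 2192 ± 86.2 with miR-708 (SD, n = 3), log2 fold changes of 1.95 and 2.47 (limma, adjusted p = 1.25e-06 and 1.24e-07). FLOT1 and FLOT2 fell by 0.43 and 0.52 with miR-708 in that line (limma, adjusted p = 0.0158 and 0.00283), and neither passed under scaling by totals (-0.11 and -0.20, adjusted p = 0.507 and 0.166).

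The clathrin coat, the other main endocytic coat, was examined as 12 genes for comparison, all tested. With miR-28 and miR-708, respectively, 2 and 3 were called lower and none higher in MCF10A, and 4 and 6 lower and 1 and 3 higher in hTERT RPE-1. The shares of all genes called were 22.7% and 32.8% in the first line and 46.8% and 62.1% in the second. Scaling by totals changed this balance to 1 and 1 lower and 1 and 4 higher in MCF10A, and to 4 and 4 lower and 3 and 4 higher in hTERT RPE-1. AP2B1, the gene of a large subunit of the AP-2 adaptor, fell in both lines under either scaling. The log2 fold change was -1.20 and -1.26 in MCF10A (limma, adjusted p = 0.00102 and 0.000321) and -1.93 and -2.16 in hTERT RPE-1 (adjusted p = 3.67e-07 and 8.01e-08). In hTERT RPE-1, PICALM, an assembly factor, fell by 0.50 and 1.10, AP2A2 by 0.48 and 0.74, and EPN1, which encodes epsin 1, by 0.51 and 0.66 (limma, adjusted p = 8.50e-06 to 0.00377). The median of the clathrin list was -0.07 and -0.20 in that line.

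Of the muscle paralogues, CAV3 was not analysed here. CAVIN4, the muscle cavin, was low, at 3.82–27.5 in MCF10A and 53.4–92.5 in hTERT RPE-1 over the 9 libraries of each. It passed the test in no contrast. The muscle genes DES, MYOD1 and MYOG were not listed in either table.

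Cell type markers, those of each line's own type included, moved with some of these results. In hTERT RPE-1 all 4 fibroblast markers were listed, and their summed value was 35024–82756 with siNT, 12791–24336 with miR-28 and 4288–8665 with miR-708, in the order of CAVIN1. COL1A1 and PDGFRB carried most of it, and COL1A2 was at 4.36–19.7. The summed pigment epithelial markers, mainly KRT8 and KRT18, were 29330–31688, 11663–12839 and 7293–7726. Of the markers listed, only KRT8 and KRT18 had means in this order. Mean MITF was 1908 with siNT, 1093 with miR-28 and 1291 with miR-708, and mean OTX2 was 950.8, 645.6 and 661.9. PMEL ranged over 9.12–544.4 with siNT, 1.16–3.27 with miR-28 and 3.14–10.5 with miR-708. Its siNT libraries thus spread widely and overlapped those with miR-708, and those with miR-28 were near the detection limit. Mean BEST1 was higher with both mimics (165.5, 230.4 and 205.4), as was RLBP1, which was near the detection limit with siNT. In MCF10A the summed breast epithelial markers were 149994–167072, 96316–105601 and 72416–94795, and the 3 fibroblast markers listed there summed to 1496–3312, 3325–10208 and 5475–14269. Each breast marker had a lower mean with both mimics, but the libraries of CDH1 and EPCAM overlapped siNT. Mean KRT17 was 18971 with miR-28 and 18910 with miR-708. DCN carried most of the fibroblast sum, with means of 2402, 7323 and 10275. Mean COL1A1 was 100.0, 236.2 and 187.4, highest with miR-28, and mean PDGFRB was low, at 5.62, 9.01 and 8.83. Each line is a single established culture, so these values do not show that cells of another type were present. The part of the markers in the results was not tested. In bulk RNA, fewer cells of a kind cannot be told apart from less RNA per cell. Endothelial and adipocyte markers were near the detection limit or not listed, apart from PECAM1 in MCF10A at 172.5–189.1 with siNT.

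The genes whose pattern was most like each member were found by Pearson correlation of log2(value + 1) over the 18 libraries, after the mean of each line was subtracted, among 10233 genes with a mean of at least 100 in both tables. The libraries share treatments and tables, so these correlations are descriptions. CAVIN1 was closest to EHD2 (r = 0.982), TLN1 (0.977), the gene of talin 1, and MYO1C (0.975), the gene of a class I myosin. CAVIN2 was closest to CEACAM1 (0.978), FRRS1 (0.973) and RBMXL1 (0.970). CAV2 was closest to TRAM1 (0.913), LNPK (0.894) and PRELID2 (0.878), and CAV1 to ACOT7 (0.845), LMNB2 (0.844) and ATAD3A (0.839). CAVIN3 was not compared in this way.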

How the data were processed

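The authors collected polyA+ RNAseq reads, trimmed adapters, aligned them to hg38 with HISAT2 2.1.0, estimated reads per RefSeq transcript by expectation maximisation in Partek Flow, and tested differences with DESeq2, per the labels and the study's methods. The expression signal the authors deposited is, for each gene, the estimated number of reads after division by the library's size factor (median of ratios), so whole reads were not available for a model of counts (81.0–84.5% of low values were whole multiples of the library's step within 0.02). The further tables they deposited hold their own fold changes and p-values and were not used. All value columns per library were used.

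Here, log2(value + 1) was fitted with limma 3.58.1 (R 4.3.3) on all 9 libraries of a line, with 3 group means and a trend of the spread over the mean, for genes that reached 10 in 3 or more of the 9 libraries. Genes were called at a Benjamini-Hochberg adjusted p below 0.05 over all genes tested. Differences between lines were taken from both fits, with Welch–Satterthwaite degrees of freedom. Ratios were compared with exact permutation tests (SciPy 1.17.1). The scripts were tested on simulated data with known changes with miR-28. Changes of 0.5 on the log2 scale were recovered for 32.9% of changed genes in MCF10A and 37.1% in hTERT RPE-1. For changes of 1.0 these shares were 73.0% and 79.7%, so small changes can go uncalled.

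The named genes are the 5 members, the members of 4 lists (caveola accessory, flotillin, clathrin, muscle paralogues) called with both mimics in a line, up to 4 by size, the 3 genes most like each member and RPS28. Genes named beyond this rule (EHD4, FLOT1, FLOT2 and FYN in hTERT RPE-1, the markers) were chosen after their values were seen, to complete a list or a line. CAVIN2 was not tested in any contrast. The members and lists were chosen with earlier results of these data known. Whether replicate numbers pair libraries was looked at by correlations of deviations from the group means, with no threshold or test, and is not settled. In MCF10A these were 0.263, 0.176, 0.111 for miR-28 and siNT and 0.302, 0.115, 0.155 for miR-708 and siNT. In hTERT RPE-1 they were 0.278, 0.198, 0.134 for the mimics. The main fit had no replicate term. Alternatives were a pseudocount of 8, no filter or a minimum of 50, scaling by totals or the upper quartile, no trend, the replicate block, only the groups compared, 1 fit over all 18 libraries, and each replicate left out. P-values measure the spread between these replicates.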

Additional observations from a re-analysis of the deposited data

Results flagged for a closer look

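The response of CAVIN1 differed between the cell lines for both mimics in a direct test of the difference of the log2 fold changes. For hsa-miR-28-5p the difference, hTERT RPE-1 minus MCF10A, was -1.14, from changes of -1.08 and 0.05. For hsa-miR-708-5p it was -1.91, from -2.06 and -0.15. In hTERT RPE-1 all 3 libraries of each mimic were below all siNT libraries, as for 27.5% and 34.9% of all genes. The groups overlapped in MCF10A. Over all 21 alternatives, adjusted p (limma estimates) was 6.07e-05 to 0.00127 for hsa-miR-28-5p and 4.30e-08 to 5.27e-06 for hsa-miR-708-5p.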

How the results depend on the processing

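The falls of CAVIN1 in hTERT RPE-1, its differences between the lines and between the mimics there, the fall of CAV2 with miR-28 in hTERT RPE-1 and the rise of CAVIN3 with miR-708 in MCF10A kept their direction and their call in every alternative run. For the changes given next, the cause was not tested. Scaling by library totals moved the median of all genes in MCF10A to 0.12 and 0.14, and that in hTERT RPE-1 to 0.091 and 0.32. Of the genes called, the part that was higher went from 47.1% to 66.1% (miR-28) and 47.3% to 67.6% (miR-708) in MCF10A, from 49.9% to 59.4% and 49.7% to 71.8% in hTERT RPE-1, from 46.5% to 84.8% between the mimics in hTERT RPE-1 and from 50.8% to 68.4% in the difference between lines for miR-708. The upper quartile moved the first of these to 59.2%.

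With scaling by totals, CAVIN2 in MCF10A was 0.045 with miR-28, a change of sign from -0.07 that the upper quartile also gave (0.0050), and 0.50 with miR-708, CAV1 with miR-708 was 0.027 in MCF10A and 0.25 in hTERT RPE-1, CAV2 with miR-708 in hTERT RPE-1 was -0.10, and between the mimics in hTERT RPE-1 CAV1 was 0.43 and CAV2 0.49, with 4650 genes called instead of 3084. With the upper quartile, CAV1 between the mimics in MCF10A was -0.013 and CAV2 with miR-708 in hTERT RPE-1 was -0.39. Without the trend, the calls of CAVIN3 with miR-28 (0.54) and CAV2 with miR-708 in hTERT RPE-1 (-0.41) were lost, and 150 genes instead of 228 differed between the mimics in MCF10A.

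With the replicate block, 643 genes instead of 228 differed between the mimics in MCF10A, where the correlations were 0.121, 0.025 and 0.177. No call of a member changed. In the other hTERT RPE-1 contrasts the correlations were 0.0214 to 0.151.

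With each replicate left out, in MCF10A, the genes called were 1949 to 3071 with miR-28, 3175 to 5483 with miR-708 and 116 to 383 between the mimics. With miR-28, CAV2 was -0.51 to -0.10, CAVIN1 -0.057 to 0.14 and CAVIN3 0.39 to 0.65, and between the mimics CAV1 was -0.096 to 0.078 and CAV2 -0.11 to 0.30. In hTERT RPE-1, CAV1 with miR-708 was -0.13 to 0.063 and CAV2 -0.46 to -0.35, and between the mimics 1509 to 4083 genes were called and CAV2 was 0.13 to 0.48. The difference between lines was -0.64 to -0.16 for CAV2 with miR-28 and -0.018 to 0.18 for CAV1 with miR-708. Where an arm kept 2 libraries, their spread was pooled with that of the other groups.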
